A study of Mus musculus with 21 samples.

Results

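The samples described here were CD8+ T cells sorted from the spleens of mice housed in an enriched environment (EE) or in a standard environment (SE), and they were chosen by the population and environment given in their labels. They made up 10 of the 21 samples of the series, 6 from EE mice and 4 from SE mice, and the other 11 samples were CD4+ T cells. All mice were female C57BL6/J and carried no transgene, deletion or drug in the labels. EE mice entered their cage at weaning, 4 weeks after birth, and stayed there for 4 weeks in groups of 12 to 15 on 9120 cm2 with running wheels, houses, tunnels and toys that were exchanged regularly. SE mice of matched age lived in groups of 5 to 6 on 666 cm2 without objects. The labels place the mice of one environment in a single cage. Cage and housing therefore cannot be told apart, and p-values refer to the spread between mice of a cage. In limma, the main test, the spread of each gene is drawn towards that of genes of similar level. The number that closes each sample name, which the labels call a number of cells, was lower in SE replicates 1, 2 and 3 than in every EE sample and highest in SE replicate 6. What it counts was not settled, and its part in the results was not tested. Samples are named by their animal number, EE replicates 1 to 6 and SE replicates 1, 2, 3 and 6.

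CD8+ T cells are the cytotoxic branch of adaptive immunity. Each cell carries a receptor of one alpha and one beta chain, built from variable segments that are joined at random in the thymus, and recognises peptides held by MHC class I with the help of the CD8 coreceptor. In the spleen of an unimmunised mouse most of them are naive, and a minority with a memory phenotype makes effector transcripts such as Ccl5 and carries Ly6C and the beta chain of the IL-2 and IL-15 receptor. Type I interferon, glucocorticoids and catecholamines all reach spleen T cells and each regulates known sets of their genes, which were among the groups examined. The comparison asked whether the transcriptome of these cells differed between mice raised in the EE and mice raised in the SE.

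Molecules were counted through unique molecular identifiers (UMIs), random tags that let the copies of a molecule made during amplification be recognised and counted once. A normalized count is the number of molecules of a gene in a sample divided by the size factor of that sample, which corrects for depth. CD8+ samples held 179696 to 221454 molecules in EE (median 191906) and 179008 to 203322 in SE (median 194488), so depth overlapped between the environments. Genes detected per sample numbered 9626 to 10120 in EE and 9832 to 10119 in SE. Over the 2730 genes with a mean above 10, Spearman correlations between the 45 pairs of CD8+ samples lay between 0.783 and 0.824.

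The CD8 coreceptor genes marked every sample. Cd8a, the alpha chain, had normalized counts from 72.5 to 117 in EE (median 99.3) and of 91.6, 116, 99.8 and 83.6 in SE. Cd8b1, the beta chain, ran from 177 to 243 in EE (median 206) and was 183, 221, 217 and 195 in SE. Both genes overlapped fully between the environments, with means of 98.7 ± 16.1 (SD, n = 6) against 97.9 ± 14.0 (n = 4) for Cd8a and an exact two-sided permutation p of 0.933, and with p = 0.905 for Cd8b1 by the same exact test, whose smallest p over 210 splits was 0.00952. Cd4 was at 0 or 1 molecule in each of the 10 samples. The CD3 genes and the constant segments of the receptor chains, given here after their values were seen, were present throughout, with Cd3d between 171 and 214 and Trbc2 between 94.0 and 160.2.

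Some libraries held transcripts of other cells. Markers of red blood cells had a summed normalized count of 583 in EE replicate 6 and 1037 in SE replicate 3. The remaining 8 samples held 0.791 to 9.61. Red cells had been lysed before the sort, which kept CD45+ CD11b- CD3+ CD8+ cells. B-cell markers summed to 119 in EE replicate 6 and to between 35.8 and 61.7 elsewhere in EE, against 41.3 to 50.3 in SE. Mitochondrially encoded transcripts summed to 4483 in SE replicate 6 and to between 3158 and 3279 in the other SE samples. Of the other-cell markers 4 genes of CD4+ T cells, 3 of B cells, 2 of myeloid cells, 1 of NK cells and 4 of red blood cells were abundant enough to test. In limma and DESeq2 0 had an unadjusted p under 0.05 between EE and SE. In edgeR 3 of the 4 red blood cell genes were lower and 1 of the 3 B-cell genes was higher in EE at that level. Without one sample, limma gave up to 1 B-cell gene higher, and up to 1 CD4+, 1 myeloid and 2 red blood cell genes lower. The summed markers of CD4+ T cells still lay lower in EE, at 10.3 to 29.1 against 24.0 to 34.4 in SE, with 5 of the 6 EE samples below all SE samples and a median log2 fold change of -0.53 over the 4 tested genes. That median was 0.77 over the 3 B-cell genes, of which Cd79b had 0.85 at an unadjusted p of 0.0548 in limma, and -0.71 over the 4 red blood cell genes. Myeloid markers summed to between 42.5 and 70.9 in EE and between 55.7 and 92.3 in SE, and those of NK cells to between 1.93 and 8.70 in EE and between 0.931 and 7.71 in SE. The gamma-delta and platelet lists had no gene to test, and Pf4, Itga2b, Tyrobp and Trdc, which mark platelets, natural killer and gamma-delta T cells, stayed at or under 4 molecules. The part of these transcripts in the differences below was not tested, and counts are also given below without EE replicate 6, SE replicate 3 and SE replicate 6 together.

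**Figure D1:**
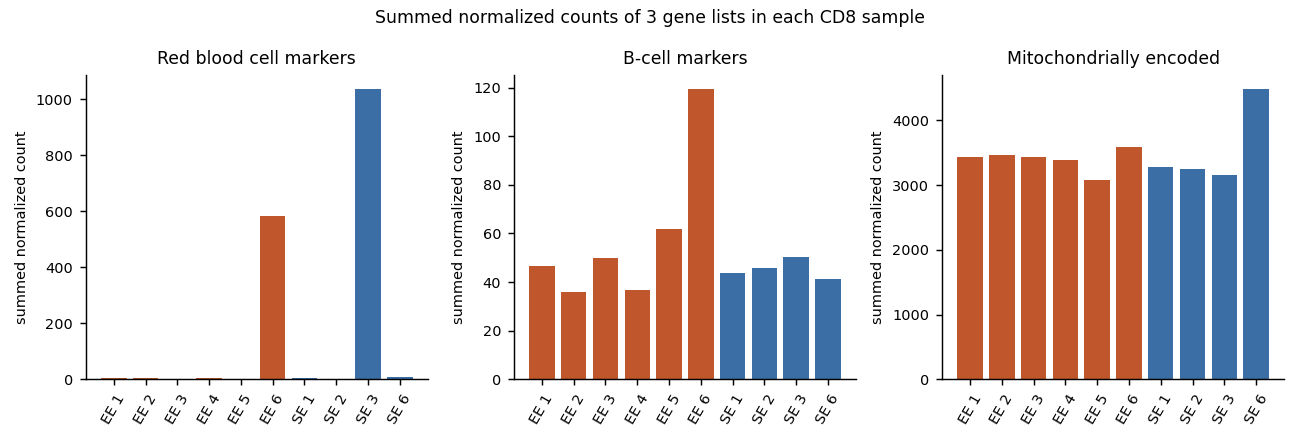
Summed normalized counts of red blood cell markers, B-cell markers and mitochondrially encoded genes in each CD8+ sample, drawn as 1 bar per sample with EE and SE in different colours. EE replicate 6 (583) and SE replicate 3 (1037) stand apart for red blood cell markers and SE replicate 6 (4483) for mitochondrial transcripts.

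No gene differed between EE and SE after adjustment. Of 7840 genes tested with limma on log2(normalized count + 1), 0 (0%) had an adjusted p under 0.05, the lowest being 0.138, and edgeR and DESeq2 on the recovered molecules also called 0. At an unadjusted p under 0.05, 244 genes (3.11%) were higher and 169 (2.16%) were lower in EE by limma, 413 in all, while edgeR gave 379 such genes and DESeq2 237. The median log2 fold change, always EE minus SE on the log2(normalized count + 1) scale, was -0.01, and 49.0% of the genes had a value above 0. Every EE sample lay above every SE sample for 40 genes (0.51%) and below every SE sample for 43 (0.548%). The 95% confidence interval of a log2 fold change had a median half-width of 0.51 for the 2730 genes with a mean above 10 and of 0.93 for the 5110 genes with a mean from 2 to 10. The intervals are not adjusted for the number of genes.

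**Figure D2:**
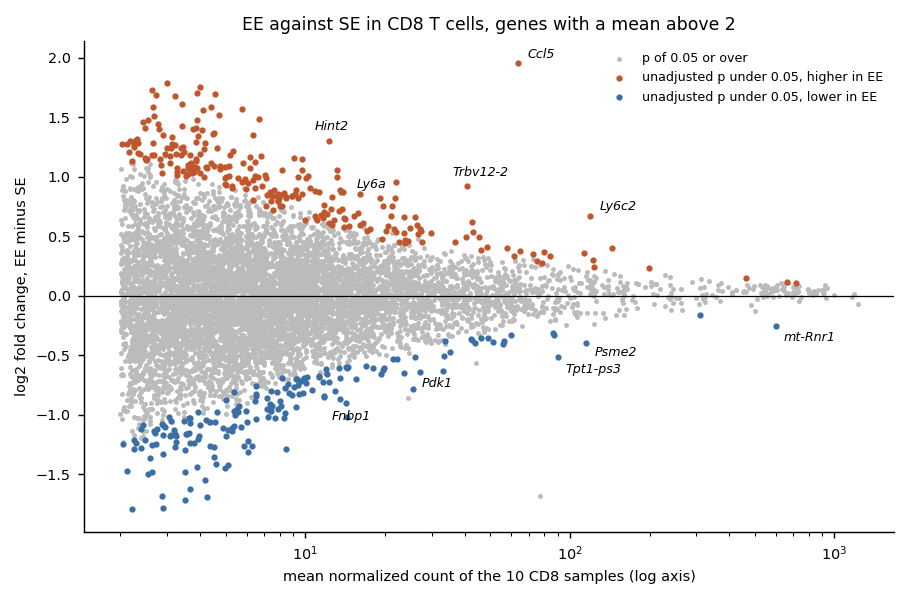
Log2 fold change (EE minus SE, log2(normalized count + 1) scale) of each of the 7840 genes tested against its mean normalized count on a log axis, with the genes at an unadjusted p under 0.05 coloured. The spread narrows as the mean increases, and the coloured genes lie on both sides of 0, 244 above and 169 below.

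The genes with the smallest p were all higher in EE: the beta-chain variable segment Trbv12-2, the chemokine Ccl5 and the surface protein Ly6c2. Trbv12-2 (ENSMUSG00000094525, chr6:41118851-41119364 on GRCm38, plus strand) encodes a variable segment of the receptor beta chain. Its normalized counts ran from 30.1 to 61.8 in EE (median 54.2) and were 30.0, 22.3, 19.4 and 32.7 in SE. 5 of the 6 EE samples lay above all SE samples, and EE replicate 4, the lowest of them, fell inside the SE range. The means were 50.5 ± 11.4 (SD, n = 6) and 26.1 ± 6.24 (n = 4), a log2 fold change of 0.92 (SE of the estimate 0.19) with an adjusted p of 0.138 in limma. The exact two-sided permutation p of the counts, not adjusted, was 0.0190. Left out alone, EE replicate 4 brought the adjusted p to 0.00798 and SE replicate 6 to 0.0168 in limma, within a range of 0.00618 to 0.726 over the 20 alternatives.

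As a share of all beta-chain variable segment molecules, a measure chosen after the values were seen, Trbv12-2 made up 12.6% to 22.3% in EE (17.1% ± 3.70, n = 6) and 6.36% to 12.2% in SE (9.17% ± 2.51, n = 4), and these ranges did not overlap. The sum of all Trbv segments was similar, at 296 ± 41.1 and 287 ± 19.3. Its neighbour Trbv12-1 had a log2 fold change of -0.15, and reads that fit both segments could have been counted to either, so the pair was also summed: 41.7 to 90.8 in EE and 32.7 to 47.1 in SE, which overlapped.

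Ccl5 (ENSMUSG00000035042, chr11:83525778-83530518, minus strand) encodes a chemokine that memory and effector CD8+ T cells store and secrete. Normalized counts of Ccl5 were 13.2 to 152 in EE (median 95.1) and 98.5, 1.86, 23.8 and 8.65 in SE. 3 of the 6 EE samples lay above all SE samples and SE replicate 1 lay among the high EE samples, so the groups overlapped. The log2 fold change was 1.96 (SE 0.47, adjusted p 0.407 in limma), and the standard deviations, 55.9 in EE and 44.5 in SE, were of the order of the means, 84.2 and 33.2. The exact two-sided permutation p of the counts was 0.152. Within an environment the SD of Ccl5 was 1.74 on the log2 scale, rank 5 among the 2730 genes with a mean above 10. Limma draws such an SD towards that of genes of similar level, so the SE of 0.47 does not rest on this spread alone. Without SE replicate 1 the log2 fold change was 2.83 with an adjusted p of 0.000445, without EE replicate 3 it was 2.39 with 0.00909, and without SE replicate 2 it was 1.12, in a range of adjusted p from 3.79e-06 to 1 over the alternatives in limma, edgeR and DESeq2. In bulk samples such as these, fewer cells of a type and less RNA per cell cannot be told apart.

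Ly6c2 (ENSMUSG00000022584, chr15:75108158-75111970, minus strand) encodes a form of Ly6C, a surface protein of memory-phenotype CD8+ T cells. Its counts lay between 91.3 and 165 in EE (median 143) and were 156, 75.4, 87.4 and 49.0 in SE. SE replicate 1 again lay inside the EE range and the other 3 SE samples lay below all EE samples. The exact two-sided permutation p of the counts was 0.0857. The log2 fold change was 0.67 (SE 0.16, adjusted p 0.407 in limma). It was 0.97 with an adjusted p of 0.000498 without SE replicate 1 and 0.26 without the 3 libraries that stood apart, in a range of adjusted p up to 1. Ly6c1, a near copy of Ly6c2 added after its values were seen, had a log2 fold change of 0.59 at an unadjusted p of 0.0887 in limma, and molecules of the pair could have been split between them.

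**Figure D3:**
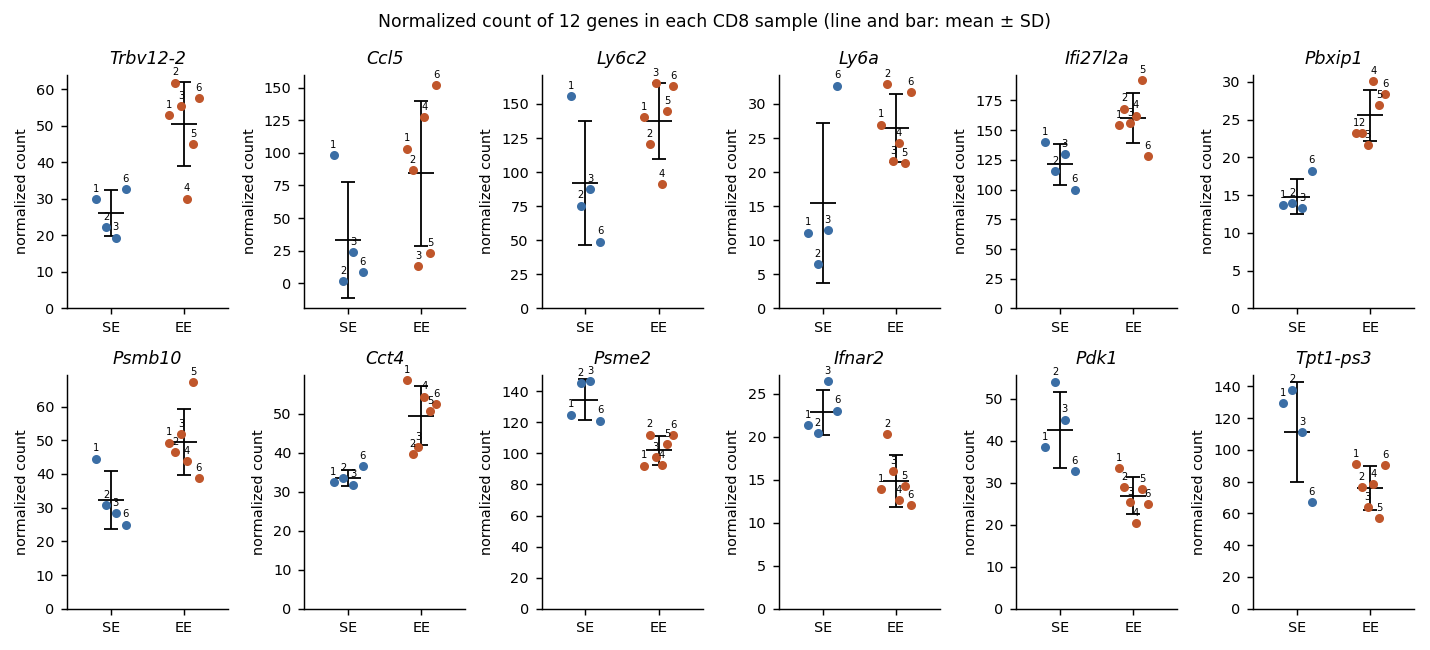
Normalized counts of Trbv12-2, Ccl5, Ly6c2, Ly6a, Ifi27l2a, Pbxip1, Psmb10, Cct4, Psme2, Ifnar2, Pdk1 and Tpt1-ps3 in each CD8+ sample, with EE and SE side by side, points numbered by animal and bars for the mean ± SD (n = 6 and 4). Pbxip1, Cct4, Psme2 and Ifnar2 do not overlap between the environments, and the other 8 genes do.

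Interferon-stimulated genes, the set that type I and type II interferons induce through the STAT and IRF factors, were examined next. Of the 49 tested members, 7 had an unadjusted p under 0.05 and were higher in EE, and 0 were lower, beside 3.11% and 2.16% of all genes. None passed after adjustment, and the median log2 fold change of the list was 0.07 against -0.01 for all genes. The 7 were Ly6a, Ifi27l2a, Oas2, Oas1a, Bst2, Isg20 and Irf7, of which the last pair was named after their values were seen. The count of higher members was 4 without SE replicate 6 and 5 without EE replicate 4, without EE replicate 5 or without SE replicate 3, the last with 1 lower. It was 2 of 49, with 1 lower, without the 3 libraries that stood apart, where the median was -0.03. On all samples it was 3 in DESeq2 and 4 in edgeR, which gave 237 and 379 genes in all against 413 in limma. It was 4 of 26 with a mean above 10 (median -0.02) and 4 with the replicate block described below (median -0.04).

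Ly6a (chr15:74994877-74998031), which encodes Sca-1, a surface protein of activated and memory T cells, had counts of 21.3 to 32.9 in EE (median 25.6) and of 11.1, 6.52, 11.5 and 32.7 in SE. SE replicate 6, the library with high mitochondrial transcripts, lay at the upper end of the EE range and the other 3 SE samples lay well below it. The log2 fold change was 0.95 (SE 0.27, adjusted p 0.661 in limma) and became 1.38 with an adjusted p of 0.0165 without SE replicate 6, in a range of 0.0165 to 1.

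Ifi27l2a (chr12:103442167-103443680), an interferon-induced gene of unsettled function in T cells, had counts of 128 to 192 in EE (median 159) and of 139.6, 115, 129.8 and 99.97 in SE. 5 EE samples lay above all SE samples, and the log2 fold change was 0.40 (SE 0.11, adjusted p 0.661 in limma). The Oas genes encode sensors of double-stranded RNA and were near the detection limit. Oas2 was 2.37 to 9.71 in EE (median 4.30) and 5.14, 0, 0 and 1.92 in SE, and Oas1a was 2.79 to 6.80 in EE (median 5.04) and 6.85, 0, 1.77 and 0 in SE. In both genes 2 SE samples held no molecule. SE replicate 1 lay in the EE range for Oas2 and above every EE sample for Oas1a. Bst2, which encodes the virion-tethering protein tetherin, was 11.3 to 21.4 in EE (median 15.8) and 18.8, 7.45, 7.07 and 6.73 in SE, and here too the EE range covered SE replicate 1 alone.

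For the 2 members with both a difference at an unadjusted p under 0.05 and a match to the interferon response motif, the promoter is shown, since this motif is the element through which such genes are induced. Promoters were taken from RefSeq on GRCm38.p6, from 250 bases before to 50 bases after the start of the gene, 5′ to 3′ on the strand of the gene. Capitals mark 2 overlapping matches to the motif, which was searched as GAAA, any 2 bases and GAAA, and which begin 20 and 14 bases before the start in Oas1a (chr5:120907476-120907775, minus strand) and 130 and 124 bases before it in Bst2 (chr8:71537423-71537722, minus strand).
Oas1a: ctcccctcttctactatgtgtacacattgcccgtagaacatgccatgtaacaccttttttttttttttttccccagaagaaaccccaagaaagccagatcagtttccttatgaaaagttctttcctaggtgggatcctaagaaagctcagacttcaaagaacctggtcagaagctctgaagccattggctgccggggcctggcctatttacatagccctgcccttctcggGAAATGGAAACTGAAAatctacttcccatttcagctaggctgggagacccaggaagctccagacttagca
Bst2: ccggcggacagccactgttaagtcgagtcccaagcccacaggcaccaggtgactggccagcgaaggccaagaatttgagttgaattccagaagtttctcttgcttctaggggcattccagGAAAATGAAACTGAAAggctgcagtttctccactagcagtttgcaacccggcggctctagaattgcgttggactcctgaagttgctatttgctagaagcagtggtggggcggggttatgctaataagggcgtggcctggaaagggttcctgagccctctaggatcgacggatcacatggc

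Of the 49 tested members 34 had a RefSeq promoter, and 19 of these (55.9%) held the motif on either strand, against 3.44% of all 32851 promoters of the same length. Of the 7 members with an unadjusted p under 0.05, 4 had a promoter, and those of Isg20 and Irf7 held no match. A match describes the letters of this window and was not related to the difference between environments. The receptors for interferon are given below with the cytokine receptors.

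Genes of memory and cytotoxic CD8+ T cells are read here beside the 3.11% of all genes that were higher and the 2.16% that were lower. In the memory list 3 of 26 tested members were higher and 1 was lower at an unadjusted p under 0.05, with a median log2 fold change of 0.03, and in the cytotoxic list 2 of 9 were higher and 0 lower, with a median of 0.15. Without the 3 libraries that stood apart, 3 were higher and 0 lower in the memory list, with a median of 0.12, and 1 of 10 was higher in the cytotoxic list, with a median of 0.04. On all samples DESeq2 gave 0 higher and 0 lower in the memory list, and edgeR gave 2 and 1. In the cytotoxic list DESeq2 gave 1 higher and edgeR 2. The replicate block described below gave 2 higher and 3 lower in the memory list and 2 and 0 in the cytotoxic list. The higher memory members with all samples in limma were Ly6c2, Klf6 and Il2rb and the cytotoxic ones Ccl5 and Srgn. The counts without one sample were 1 to 4 higher in the memory list, with 1 without EE replicate 2 or EE replicate 6, and 1 to 2 in the cytotoxic list, with 1 without EE replicate 2, EE replicate 3, SE replicate 1 or SE replicate 3.

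Il2rb, the receptor chain that binds IL-15 on memory-phenotype cells, had counts of 12.1 to 19.8 in EE (median 13.8) and of 10.3, 5.59, 9.71 and 12.5 in SE, with 5 EE samples above all SE samples. Srgn, the proteoglycan that packs cytotoxic granules, ran from 75.6 to 87.0 in EE (median 80.3) and was 63.4, 74.5, 58.3 and 68.2 in SE, without overlap, and its log2 fold change was 0.29 (SE 0.13, adjusted p 0.923 in limma). Klf6, a zinc-finger factor, was 11.2 to 23.2 in EE (median 15.7) and 11.1, 5.59, 8.83 and 17.3 in SE, where SE replicate 6 lay within the EE range. Ifitm10 was the lower memory member, at 0.859 to 8.74 in EE (median 5.14) and 8.56, 7.45, 14.1 and 5.77 in SE. Cxcr6, a chemokine receptor of resident and effector cells, was 9.66 to 15.8 in EE (median 13.6) and 5.14, 18.6, 7.07 and 9.61 in SE, so that the EE samples lay within the SE range, with a log2 fold change of 0.49 (SE 0.31, adjusted p 0.962 in limma). Nkg7, a granule protein added after its values were seen, was at 153 ± 16.3 in EE (n = 6) and 146 ± 8.54 in SE (n = 4).

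The proteasome, which makes the peptides that MHC class I presents, had few members at an unadjusted p under 0.05. Of 47 tested genes 1 (2.13%) was higher, Psmb10, and 2 (4.26%) were lower, Psme2 and Psmd6, shares near the 3.11% and 2.16% of all genes, and the median log2 fold change was 0.03. Higher members numbered 3 without SE replicate 3 and 2 without SE replicate 2, lower members 1 without EE replicate 1 or SE replicate 1, and 2 were higher and 3 lower without the 3 libraries that stood apart. Psmb10, a catalytic subunit of the immunoproteasome, had counts of 38.6 to 67.2 in EE (median 47.8) and of 44.5, 30.7, 28.3 and 25.0 in SE, where SE replicate 1 lay in the EE range, and its log2 fold change was 0.62 (SE 0.18, adjusted p 0.661 in limma). Psmb8 and Psmb9, the other immunoproteasome catalytic subunits, added after their values were seen, had log2 fold changes of 0.15 and 0.03.

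Psme2 (chr14:55587441-55591113, minus strand), the beta subunit of the PA28 activator that caps the proteasome, was lower in EE. Its counts were 92.1 to 112 in EE (median 102) and 125, 145, 147 and 121 in SE, so that every EE sample lay below every SE sample. The means were 102 ± 9.18 (SD, n = 6) and 135 ± 13.3 (n = 4), with a log2 fold change of -0.40 (SE 0.11, adjusted p 0.661 in limma). Psme2b is a near copy whose molecules could be shared with Psme2, and was added after its values were seen. The sum of both spanned 128 to 167 in EE against 169 to 214 in SE and did not overlap. Psme1, the alpha subunit of the same activator, had a log2 fold change of -0.02, with means of 99.0 ± 8.36 in EE (n = 6) and 103 ± 25.3 in SE (n = 4). Psmd6, of the regulatory cap, was 0.930 to 7.91 in EE (median 5.87) and 15.4, 13.0, 4.42 and 12.5 in SE. Among 20 tested genes of MHC class I and peptide loading, 0 were higher and 1 (5.00%), H2-T24, was lower at an unadjusted p under 0.05, with counts of 0 to 5.83 in EE and of 2.88 to 6.52 in SE and a list median of 0.02. Among all genes 3.11% were higher and 2.16% lower, and the count of 1 was 0 without EE replicate 1, EE replicate 2, EE replicate 3, SE replicate 1, SE replicate 2 or SE replicate 3.

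Chaperones fold new and stress-damaged proteins, and glucocorticoids act on T cells through a receptor that heat-shock proteins hold in readiness. Among 55 tested heat-shock proteins and chaperonins, 5 (9.09%) were higher and 2 (3.64%) were lower in EE at an unadjusted p under 0.05, beside 3.11% and 2.16% of all genes, with a median log2 fold change of 0.13. The higher ones were Cct4, Cct8, Hspa5, Hspa8 and Hsp90aa1 and the lower ones Dnajc3 and Dnajc13. Without one sample the count of higher members ran from 2 (without EE replicate 3, EE replicate 4 or SE replicate 1) to 6, with 3 without EE replicate 5 or EE replicate 6, and without the 3 libraries that stood apart it was 8 higher and 3 lower of 56. On all samples DESeq2 gave 2 higher and 1 lower, and edgeR gave 5 and 2. The replicate block described below gave 2 and 2 of 54.

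Cct4, a subunit of the TRiC ring that folds actin and tubulin, had counts of 39.6 to 58.6 in EE (median 51.5) and of 32.5, 33.5, 31.8 and 36.5 in SE. All EE samples lay above all SE samples, and the log2 fold change was 0.53 (SE 0.17, adjusted p 0.68 in limma). Cct8, of the same ring, was 26.1 to 34.8 in EE (median 30.4) and 20.6, 21.4, 26.5 and 16.3 in SE, with 5 EE samples above all SE samples. Hspa5, the chaperone of the endoplasmic reticulum, was 22.1 to 35.0 in EE (median 27.6) and 18.8, 20.5, 15.0 and 25.0 in SE, with 4 EE samples above. Dnajc3, a cochaperone of Hspa5, lay the other way, at 13.5 to 30.1 in EE (median 21.0) and 27.4, 41.9, 48.6 and 22.1 in SE, and its log2 fold change was -0.64 (SE 0.24, adjusted p 0.837 in limma). Dnajc13, which acts in endosomes, was 0 to 7.12 in EE (median 2.34) and 5.14, 10.2, 8.83 and 3.84 in SE.

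Of 29 tested genes for the glucocorticoid receptor and its targets, 4 (13.8%) were higher and 1 (3.45%) was lower at an unadjusted p under 0.05, beside 3.11% and 2.16% of all genes, with a median log2 fold change of 0.05. Without the 3 libraries that stood apart 6 of 28 were higher and 0 lower, and the median was -0.06. On all samples DESeq2 gave 1 higher and 0 lower, and edgeR gave 4 and 1. In limma the counts were 2 and 1 with a pseudocount of 0.5 and 2 and 0 of 18 with a mean above 10. They were 1 and 0 with the replicate block described below. Tsc22d3, which encodes GILZ and is induced by glucocorticoids in lymphocytes, had counts of 45.6 to 87.4 in EE (median 72.3) and of 32.5, 62.4, 61.8 and 64.4 in SE. 5 EE samples lay above all SE samples, SE replicate 1 lay far below the rest, and the log2 fold change was 0.38 (SE 0.17, adjusted p 0.923 in limma), or 0.15 without SE replicate 1. Hspa8, 165 to 254 in EE (median 223) and 136, 192, 187 and 208 in SE, and Hsp90aa1, 25.1 to 65.0 in EE (median 41.0) and 18.8, 25.1, 41.5 and 33.6 in SE, are on this list as chaperones of the receptor. Their log2 fold changes were 0.23 and 0.45, or 0.10 and 0.26 without SE replicate 1, and both overlapped between the environments. Tgfbr3, a coreceptor for TGF-beta, was the lower member, at 0 to 3.87 in EE and 3.43 to 7.45 in SE. The receptor gene Nr3c1, added after its values were seen, had a log2 fold change of -0.35 at an unadjusted p of 0.192 in limma. Without one sample 1 to 5 members were higher, with 1 without EE replicate 3, EE replicate 4, EE replicate 5 or SE replicate 1 and 2 without EE replicate 6.

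Genes of translation and energy metabolism had few members at an unadjusted p under 0.05. Of 83 cytosolic ribosomal protein genes 3 were higher (Rpl7, Rps26 and Rps18; 3.61% beside 3.11% of all genes) and 0 lower at an unadjusted p under 0.05. The higher count was 11 without EE replicate 6, 4 without SE replicate 2, 3 without EE replicate 5, 2 without EE replicate 4, 1 without EE replicate 3, SE replicate 3 or SE replicate 6, and 0 without EE replicate 1, EE replicate 2 or SE replicate 1. With all samples the median log2 fold change was 0.04, with 69 of 83 above 0. Rps26, the one among them without overlap, was 653 to 704 in EE (median 682) and 626, 618, 625.3 and 641 in SE, a log2 fold change of 0.11 (SE 0.05, adjusted p 0.923 in limma). Rpl7 spanned 446 to 515 in EE against 397 to 474 in SE, and Rps18 spanned 668 to 770.2 in EE against 671 to 700.3 in SE. Translation factors had 1 of 55 (1.82%) higher, Eif3k, and 3 (5.45%) lower, Eif4b, Eif4a3 and Eif2s1, beside 3.11% and 2.16% of all genes. The higher count was 3 without EE replicate 6, 2 without SE replicate 6 and 0 without EE replicate 5 or SE replicate 3, the lower count ran from 2 to 4 without one sample, and 3 were higher and 4 lower of 56 without the 3 libraries. Eif3k, a subunit of the initiation factor eIF3, ran from 80.6 to 90.8 in EE and from 63.4 to 76.2 in SE, and Eif4a3, a helicase of the exon junction complex, from 17.5 to 27.7 in EE and from 28.8 to 36.0 in SE. Neither pair of ranges overlapped, and the log2 fold changes were 0.28 (SE 0.13) and -0.51 (SE 0.21), with adjusted p of 0.923 and 0.92 in limma. Eif4b, which helps the helicase of the cap complex, was 23.3 to 35.0 in EE and 38.5, 52.1, 45.0 and 34.6 in SE. Eif2s1, the alpha subunit of eIF2, spanned 7.44 to 17.9 in EE against 9.42 to 23.1 in SE, with overlap.

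Among 75 nuclear genes of the respiratory chain and ATP synthase, 2 were higher (Ndufs7 and Cox7a2l) and 2 lower (Ndufs1 and Ndufa2), with a median log2 fold change of 0.03. Each direction held 2.67% of the list, near the 3.11% and 2.16% of all genes. The counts were 5 higher and 1 lower without SE replicate 3 and also without the 3 libraries that stood apart, 4 and 3 without EE replicate 4, 1 and 3 without EE replicate 5, and 1 and 1 without SE replicate 1. Ndufs7 and Ndufa2, both subunits of complex I, lay in opposite directions, with log2 fold changes of 0.66 (SE 0.23) and -0.41 (SE 0.16), adjusted p of 0.68 and 0.92 in limma and overlapping groups. Ndufs1, also of complex I, spanned 0 to 6.51 in EE against 3.84 to 12.8 in SE, and Cox7a2l, which helps to assemble supercomplexes, spanned 120.4 to 142 in EE against 77.9 to 136 in SE. Of 11 mitochondrially encoded genes 1 (9.09%) was higher, mt-Nd4l, and 1 lower, mt-Rnr1, the small ribosomal RNA of the mitochondrion. The counts were 4 and 0 without SE replicate 6 and 2 and 0 of 10 without the 3 libraries, 2 were lower without SE replicate 3, and 0 were higher without EE replicate 4, EE replicate 6, SE replicate 1, SE replicate 2 or SE replicate 3. mt-Nd4l, a subunit of complex I, spanned 107 to 179 in EE against 83.8 to 161 in SE. mt-Rnr1 was 461 to 620.5 in EE (median 558) and 570.4, 604, 545 and 990.0 in SE, and its log2 fold change of -0.26 (SE 0.09, adjusted p 0.68 in limma) included the high value of SE replicate 6. Without that sample it was -0.06, so that the lower value in EE rested on 1 library.

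In the list of glycolysis and pyruvate control, 0 of 23 genes were higher and 2 (8.70%), Pdk1 and Hif1a, were lower, beside 3.11% and 2.16% of all genes, with a median of -0.07. The lower count was 1 without SE replicate 1, and 1 was higher and 3 lower without SE replicate 3. Pdk1 (chr2:71873224-71903858), the kinase that holds pyruvate back from the mitochondrion, had counts of 20.4 to 33.5 in EE (median 26.9) and of 38.5, 54.0, 45.0 and 32.7 in SE. 5 EE samples lay below all SE samples, and the log2 fold change was -0.63 (SE 0.20, adjusted p 0.68 in limma). Hif1a, the oxygen-regulated factor that controls Pdk1, was 1.86 to 12.6 in EE (median 4.01) and 14.6, 10.2, 9.71 and 6.73 in SE, and 5 EE samples lay below all SE samples. Lipid and cholesterol genes had 1 of 22 (4.55%) higher and 1 lower, Fdps and Srebf1, with 2.91 to 9.66 and 0.791 to 6.76 in EE against 0.856 to 2.88 and 2.57 to 12.5 in SE. Both counts of this list lay between 0 and 2 without one sample, and 2 were higher and 0 lower without the 3 libraries.

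The 27 tested genes of the T-cell receptor complex and its proximal signalling had a median log2 fold change of -0.02, with 12 above 0. Regulators of CD8 lineage and differentiation had 0 of 15 in either direction, and their most abundant members, Ikzf1 and Runx3, had log2 fold changes of -0.23 (SE 0.18) and 0.00 (SE 0.25). Of these regulators 1 was higher without EE replicate 3, EE replicate 6 or the 3 libraries that stood apart. The naive and quiescence list had 1 of 20 (5.00%) higher and 0 lower, beside 3.11% and 2.16% of all genes, with a median of -0.01. It had 0 higher and 1 lower without SE replicate 3.

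Cytokine receptors and their kinases had 2 of 29 (6.90%) higher and 2 lower with all samples, beside 3.11% and 2.16% of all genes, and 1 higher and 0 lower without the 3 libraries that stood apart. Left out alone, SE replicate 3 brought both counts to 0, EE replicate 3 the higher count to 4, and EE replicate 2 or EE replicate 6 the higher count to 1. The lower count was 1 without EE replicate 4, EE replicate 5, EE replicate 6, SE replicate 1 or SE replicate 2. With all samples the lower pair were receptor chains for interferon. Ifnar2, a chain of the type I interferon receptor, was 12.0 to 20.3 in EE (median 14.1) and 21.4, 20.5, 26.5 and 23.1 in SE, with every EE sample below every SE sample and a log2 fold change of -0.60 (SE 0.24, adjusted p 0.92 in limma). Ifngr2, of the type II receptor, was 2.37 to 12.2 in EE and 11.1, 10.2, 9.71 and 7.69 in SE, with 4 EE samples below and 1 above all SE samples. Their partner chains, added after their values were seen, had values above 0, with log2 fold changes of 0.48 (SE 0.29) for Ifnar1 and 0.29 (SE 0.23) for Ifngr1, at adjusted p of 0.962 and 0.963 in limma.

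Of 24 NF-kB subunits and regulators 2 (8.33%) were higher, the inhibitor Nfkbib and the adaptor Traf2, and 1 (4.167%) was lower, the adaptor Traf3, beside 3.11% and 2.16% of all genes. The higher count was 4 without SE replicate 6, 1 without SE replicate 1 or SE replicate 3, where the latter also left 0 lower, and 3 without the 3 libraries that stood apart. Nfkbib was 9.45 to 18.8 in EE (median 12.4) and 3.43, 6.52, 3.53 and 12.5 in SE, with a log2 fold change of 1.01 (SE 0.34, adjusted p 0.68 in limma). Traf2 spanned 3.44 to 6.76 in EE against 0.856 to 4.81 in SE, and Traf3 spanned 1.58 to 7.73 in EE against 5.77 to 9.71 in SE. Among 16 genes of the BCL2 family and cell death 1 (6.25%) was higher, the caspase inhibitor Xiap, at 5.80 to 14.6 in EE and 4.28 to 5.59 in SE without overlap, and the count stayed at 1 without EE replicate 2 or EE replicate 6 and was 0 without any other sample and without the 3 libraries. Proliferation and DNA replication had 0 of 22 higher and 2 (9.09%) lower, the G1 cyclin Ccne1 and the replicative helicase subunit Mcm4. Ccne1 was 0 to 4.85 in EE (median 0.860) and 2.57, 4.66, 7.95 and 10.6 in SE, and Mcm4 was 0.971 to 6.76 in EE (median 2.99) and 7.71, 6.52, 7.07 and 9.61 in SE. The groups of both genes overlapped, and the list median was 0.07. Without the 3 libraries 0 of 19 tested members were higher and 0 lower, with a median of 0.15.

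The Trbv segments, the variable segments of the beta chain, had a larger spread between mice than other genes of similar level. Over the 14 Trbv segments with a mean above 10, the median SD within an environment was 0.73 on the log2 scale, against 0.41 for the 1902 genes with means of 10 to 30 and 0.35 for all 2730 genes with a mean above 10. Of the 12 genes with the largest such SD, 6 were Trbv segments, 4 were haemoglobin genes and the others were Ccl5 and Plp2. Trbv29, one of the 6, had no molecule in EE replicate 1 and 11.1 to 21.4 in the other 9 samples.

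Between the environments 2 of 19 tested Trbv segments were higher, Trbv12-2 and Trbv4, and 3 lower, Trbv15, Trbv16 and Trbv14, at an unadjusted p under 0.05. In limma these were 10.53% and 15.79% of the list, beside 3.11% and 2.16% of all genes, and without the 3 libraries that stood apart 1 was higher and 1 lower. On all samples DESeq2 gave 2 higher and 0 lower, and edgeR gave 2 and 1. Limma draws the spread of a gene towards that of genes of similar level, and the spread of Trbv segments was larger than theirs. Left out alone, EE replicate 5 or SE replicate 6 brought the higher count to 1, and EE replicate 3 or SE replicate 3 the lower count to 1. With all samples the median log2 fold change of the list was -0.15 and took either sign, from -0.22 to 0.16, without one sample. Trbv4 was 8.37 to 26.9 in EE (median 12.9) and 8.56, 8.38, 8.83 and 2.88 in SE, with 4 EE samples above all SE samples. Trbv16 was 2.91 to 39.1 in EE (median 27.2) and 28.3, 27.0, 33.6 and 31.7 in SE, so that the EE samples lay on both sides of the narrow SE range. Trbv15 and Trbv14 overlapped across most of their ranges, 0.940 to 22.9 and 8.37 to 41.7 in EE against 4.28 to 37.1 and 14.9 to 39.4 in SE. Of 32 Trav segments of the alpha chain 2 were higher, Trav14-1 and Trav9n-3, and 2 lower, Trav7-3 and Trav6n-7, 6.25% in each direction, with at most 13 molecules of each in a sample. Higher Trav segments numbered 5 without EE replicate 4 and 1 without EE replicate 1, and lower ones 5 without SE replicate 6, 4 without EE replicate 1 or EE replicate 6 and 1 without SE replicate 1. Of 31 segments 3 were higher and 4 lower without the 3 libraries. Trav segments occur as near copies in C57BL6/J, so molecules could have been split among them.

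The remaining lists held few members at an unadjusted p under 0.05. Chemokine receptors and migration (13 tested), immediate-early and AP-1 genes (18), circadian clock (5), cAMP and adrenergic signalling (17) and clustered histone genes (8) had 0 in either direction with all samples in the main limma fit and at most 2 without one sample. In the cAMP list edgeR gave 1 higher and 1 lower, and DESeq2 and limma with equal totals each gave 0 and 1. The cAMP list had a median log2 fold change of 0.26 with 13 of 17 above 0, and its most abundant members, Gnas and Akap13, had values of -0.17 (SE 0.16) and 0.00 (SE 0.17). The homing molecules Selplg and Itgb7 had log2 fold changes of 0.05 and -0.01, the immediate-early genes Ier2 and Btg2 of -0.01 and 0.34, the clock genes Csnk1d and Dbp of -0.33 and -0.44, and the histone genes Hist2h2aa2 and Hist1h1c of 0.05 and -0.05. Selplg, Itgb7, Ier2, Akap13, Hist2h2aa2 and Hist1h1c took either sign when a sample was left out.

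Actin cytoskeleton genes had 2 of 37 (5.41%) higher, Arpc1b and Arpc3 of the Arp2/3 complex that branches actin filaments, and 1 (2.70%) lower, the myosin heavy chain Myh9, beside 3.11% and 2.16% of all genes. The higher count was 0 without EE replicate 5 or SE replicate 2, 1 without EE replicate 6 or SE replicate 3 and 3 without SE replicate 6. The lower count was 3 without SE replicate 6, 2 without EE replicate 6 or the 3 libraries, and 0 without EE replicate 1, EE replicate 3, EE replicate 5, SE replicate 1 or SE replicate 3. Arpc1b spanned 70.7 to 115 in EE against 53.9 to 98.0 in SE, Arpc3 8.46 to 23.2 and 4.28 to 20.3, and Myh9 31.6 to 64.4 and 49.4 to 67.7, each with overlap. Of the 8 Gimap GTPases 1 (12.5%) was higher, Gimap4, at 79.0 to 101 in EE (median 87.9) and 80.5, 74.5, 60.9 and 56.7 in SE. 5 EE samples lay above all SE samples for Gimap4, whose log2 fold change was 0.37 (SE 0.13, adjusted p 0.832 in limma). It was 0.13 without the 3 libraries that stood apart, where 0 Gimap genes were higher. Splicing factors and hnRNPs had 1 of 57 (1.75%) higher and 0 lower, and 2 higher without SE replicate 2, SE replicate 3 or the 3 libraries. With all samples it was Hnrnpa3, at 27.5 to 42.3 in EE (median 34.7) and 24.8, 20.5, 23.8 and 24.0 in SE without overlap, with a log2 fold change of 0.53 (SE 0.20, adjusted p 0.847 in limma).

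**Figure D4:**
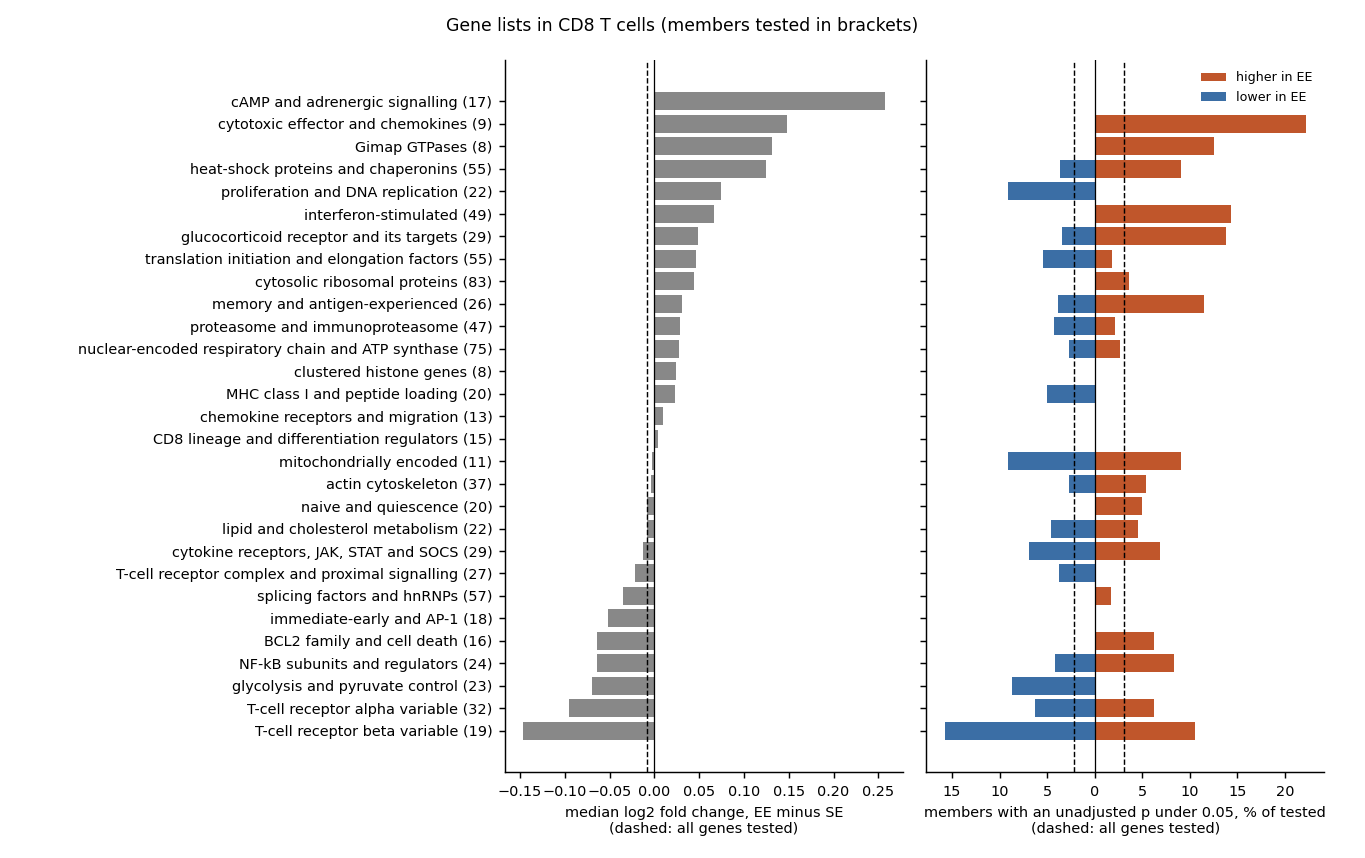
Gene lists with at least 8 tested members, with the median log2 fold change (EE minus SE) of each list and the percentage of its members higher or lower in EE at an unadjusted p under 0.05, dashed lines marking all 7840 genes (median -0.01, 3.11% and 2.16%). List medians lie near 0, with 0.26 for cAMP signalling and -0.15 for Trbv segments.

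Among genes with a mean above 10, the 10 higher and 10 lower with the smallest p included, besides those above, Hint2, Pbxip1, Camk2d and Frmd8 on the higher side. Hint2, a mitochondrial hydrolase, was 6.01 to 21.4 in EE (median 19.6) and 6.85, 8.38, 3.53 and 4.81 in SE, with 5 EE samples above all SE samples and a log2 fold change of 1.30 (SE 0.33, adjusted p 0.484 in limma). Pbxip1, which binds PBX homeodomain factors, was 21.6 to 30.1 in EE (median 25.1) and 13.7, 14.0, 13.2 and 18.3 in SE, without overlap, with a log2 fold change of 0.75 (SE 0.23, adjusted p 0.661 in limma). Camk2d, a calcium- and calmodulin-dependent kinase subunit, was 11.1 to 29.1 in EE (median 14.9) and 7.71, 11.2, 5.30 and 6.73 in SE. Frmd8, a partner of the iRhom proteins that control ADAM17, was 14.9 to 32.4 in EE (median 21.9) and 11.1, 13.0, 16.8 and 9.61 in SE. In each of the 4 genes all 6 EE samples lay above the SE mean.

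On the lower side were Tpt1-ps3, mt-Rnr1, Psme2, Pdk1 and Dnajc3, with Fnbp1, AI413582, Ktn1, Med30 and R3hdm1. Tpt1-ps3 (chr6:99877816-99878334, minus strand) is a processed pseudogene of Tpt1 and was 56.9 to 91.2 in EE (median 77.5) and 129, 138, 111 and 67.3 in SE. SE replicate 6 lay inside the EE range, and the log2 fold change was -0.51 (SE 0.15, adjusted p 0.661 in limma). It became -0.73 with an adjusted p of 0.0165 without SE replicate 6 and -0.87 with 0.0148 without the 3 libraries that stood apart, in a range of 0.0148 to 1. Tpt1 itself, added after its values were seen, had a log2 fold change of -0.01 with means of 744 ± 36.3 in EE (n = 6) and 751 ± 43.8 in SE (n = 4), and molecules of the gene could have been counted to the pseudogene.

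R3hdm1, a protein with an R3H nucleic-acid binding domain, was 9.71 to 15.5 in EE (median 12.0) and 20.6, 23.3, 17.7 and 20.2 in SE, without overlap, with a log2 fold change of -0.70 (SE 0.26, adjusted p 0.847 in limma). AI413582 was 13.7 to 25.1 in EE (median 18.9) and 26.6, 37.2, 31.8 and 25.0 in SE, and Ktn1, a membrane protein that binds kinesin, was 3.88 to 17.4 in EE (median 9.85) and 14.6, 20.5, 17.7 and 20.2 in SE. Med30, a subunit of the Mediator complex, was 5.64 to 14.5 in EE (median 9.52) and 22.3, 13.0, 14.1 and 21.1 in SE, and Fnbp1, an adaptor of membrane curvature and actin, was 4.74 to 17.4 in EE (median 9.04) and 35.1, 13.0, 15.0 and 17.3 in SE. In AI413582, Ktn1 and Med30, 5 of the 6 EE samples lay below all SE samples, and in Fnbp1 4 did.

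Past limits of an unadjusted p under 0.01 and an absolute log2 fold change over 1, applied to genes with a mean above 2, lay 54 genes (0.689%), 35 higher and 19 lower in EE. Their median normalized count was 4.43, 4 had a mean above 10, and 11 of the higher and 6 of the lower genes had groups without overlap, so that the count rests mostly on genes of a few molecules per sample. Without the 3 libraries that stood apart the count was 69. Past the wider limits of p under 0.05, an absolute log2 fold change over 0.5 and a mean above 10 lay 95 of 2730 genes (3.48%), 60 higher and 35 lower, and 132 without those libraries.

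The higher genes without overlap that had the smallest p within the first limits were Lpcat4, Gtf2f2, Nrf1, Ascc2, Zkscan14 and Rmi1. Lpcat4, an acyltransferase that remodels phospholipids, was 3.76 to 9.30 in EE (median 6.54) and 3.43, 1.86, 0 and 0.961 in SE, with a log2 fold change of 1.70 (SE 0.47, adjusted p 0.661 in limma). Nrf1, a transcription factor of nuclear genes for mitochondrial proteins, was 5.83 to 16.3 in EE (median 7.16) and 3.43, 3.72, 1.77 and 1.92 in SE, with a log2 fold change of 1.36 (SE 0.40, adjusted p 0.661 in limma). Gtf2f2, a subunit of the general factor TFIIF, spanned 6.33 to 13.0 in EE against 0.883 to 5.59 in SE, and Zkscan14, a zinc-finger protein, 2.90 to 10.3 in EE and 0.883 to 2.88 in SE. Ascc2 and Rmi1, which act in alkylation repair and in the dissolution of recombination intermediates, were at 2.37 to 6.87 and 2.79 to 7.12 in EE and reached 1.71 and 1.77 in SE, each with 2 SE samples at 0.

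The lower genes of the same kind were Gstt2, Map3k1, Topors, Triobp, Casc4 and Det1. Gstt2, a glutathione transferase, was 0.930 to 9.40 in EE (median 4.91) and 12.8, 15.8, 9.71 and 13.5 in SE, with a log2 fold change of -1.28 (SE 0.39, adjusted p 0.661 in limma). Map3k1, a kinase upstream of JNK and ERK, was 0 to 3.87 in EE (median 2.64) and 6.00, 11.2, 7.07 and 5.77 in SE, with a log2 fold change of -1.69 (SE 0.51, adjusted p 0.661 in limma). Topors, a ubiquitin and SUMO ligase, spanned 1.88 to 5.53 in EE against 5.59 to 11.5 in SE, and Triobp, which bundles actin, spanned 0.966 to 4.70 in EE against 5.14 to 9.31 in SE. Casc4 and Det1 reached 2.79 and 2.82 in EE and lay between 4.81 and 7.07 and between 3.84 and 5.59 in SE. Among these 12 genes the individual samples held 0 to 19 molecules, at which counting error alone is large.

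Whether the environment difference in CD8+ T cells differed from that in CD4+ T cells was tested by the interaction of environment and population over all 21 samples. The main fit took all samples as independent, although 9 mice had given both populations. The environment difference in CD8+ minus that in CD4+ T cells had an adjusted p under 0.05 in limma for 0 of 7938 genes (0%), the lowest being 0.924, and 393 genes had an unadjusted p under 0.05. edgeR and DESeq2 also called 0, as did a limma fit that took samples of the same mouse as correlated. A count of 0 does not show that the differences were alike in CD8+ and CD4+ T cells. Of the 20 genes with the smallest p and a mean above 10 in CD8+ T cells, 10 had an unadjusted interaction p under 0.05, but all 20 were chosen for their difference in CD8+ T cells, which enters the interaction.

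For Ccl5 the log2 fold changes were close, 1.96 (SE 0.47) in CD8+ and 1.80 (SE 0.57) in CD4+ T cells, with a difference of 0.16 (SE 0.93). For Ly6c2 the CD4+ value was -0.62 (SE 0.41) and the difference 1.29 (SE 0.45), for Trbv12-2 it was 0.10 (SE 0.22) and the difference 0.82 (SE 0.31), and for Psmb10 it was -0.22 (SE 0.19) and the difference 0.84 (SE 0.26). None of these genes passed after adjustment in CD4+ T cells, and the CD4+ values are given as a description. Tpt1-ps3 had -0.60 (SE 0.19, adjusted p 0.629 in limma) in CD4+ T cells. Ly6a, Ifi27l2a and Pbxip1 had CD4+ values of 0.43 (SE 0.17), 0.20 (SE 0.11) and 0.46 (SE 0.22), with adjusted p of 0.765, 0.845 and 0.835 in limma. For AI413582 and Ktn1 the CD4+ values were 0.47 (SE 0.23) and 0.35 (SE 0.26), with adjusted p of 0.835 and 0.893 in limma, and the differences of CD8+ minus CD4+ values were -1.12 (SE 0.32) and -1.22 (SE 0.40). Pdk1 was at -0.01 (SE 0.21) in CD4+ T cells, Hint2 at 0.24 (SE 0.31), Frmd8 at -0.09 (SE 0.28) and Psme2 at -0.07 (SE 0.14).

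**Figure D5:**
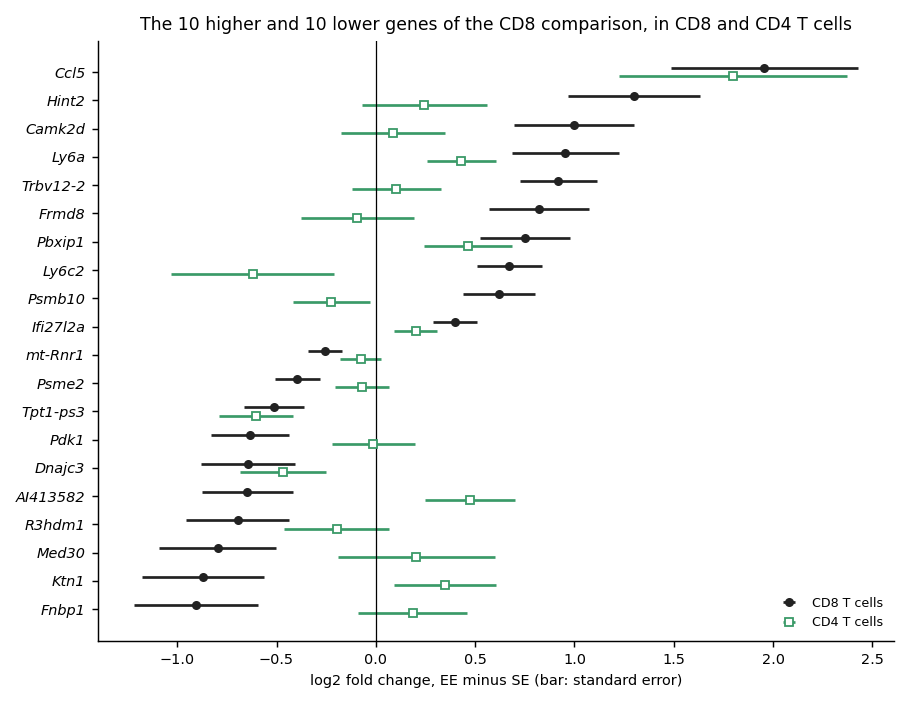
Log2 fold changes (EE minus SE, log2(normalized count + 1) scale) with their standard errors for the 20 genes with the smallest p and a mean above 10 in CD8+ T cells, with the CD8+ and CD4+ values drawn side by side. Ccl5 lies at 1.96 and 1.80, and the CD8+ and CD4+ values of Ly6c2, Psmb10, Frmd8, AI413582, Ktn1, Med30 and Fnbp1 lie on opposite sides of 0.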

How the data were processed

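RNA of CD8+ and CD4+ T cells sorted from spleen was sequenced on an Ion Proton instrument. According to the methods and labels, the authors trimmed reads with cutadapt, aligned them with STAR 2.4.0a to mm10, counted UMIs per gene on an Ensembl model of GRCm38, removed low-abundance genes (limit not given in the sources used here) and divided by DESeq2 size factors. The deposited signal is therefore a normalized count, in 1 table of 21 samples and 12994 genes, of whose names 12502 matched an annotated symbol and 492 were kept as listed. Dividing each column by its smallest step gave whole molecules for 100% of values (tolerance 0.01). Samples took population, environment and animal number from the labels, and replicates were distinct libraries (largest chi-square p 6e-119 over 21 pairs of samples). Animal numbers recur in EE and SE, but the deviations of same-numbered samples correlated between -0.0145 and 0.0368 over 4 pairs, so the numbers were not taken to pair samples.

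EE and SE were compared in CD8+ samples with limma 3.58.1 (trend) in R 4.3.3 on log2(normalized count + 1) for genes with a mean above 2, with Benjamini-Hochberg adjustment over all genes tested and a threshold of 0.05. Exact permutation tests (two-sided) served for single values. Named were the CD8 markers and Cd4, genes called in any alternative with at most 10 calls, the 10 higher and 10 lower genes of smallest p with a mean above 10, at most 6 genes a direction past the first limits without overlap, up to 5 members a list with an unadjusted p under 0.05 or else its 2 most abundant, and Ccl5 and Cxcr6. The comparison, gene lists and rules were chosen with earlier results of these data known. Ifng was not analysed here, and some genes that the rule names (all of the naive list included) are left out.

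Alternatives were a pseudocount of 0.5, no filter, a mean above 10, equal totals, sample weights, all 21 samples in the fit, a replicate block, each sample left out, edgeR 4.0.16, DESeq2 1.42.0 and, chosen after seeing the data, 3 libraries left out together. The fits were tested on simulated data. Other steps ran in Python 3.11.15 (pandas 2.3.3, NumPy 2.4.6, SciPy 1.17.1), and figures were drawn with Matplotlib 3.10.9. Depth was 179008 to 221454 molecules per CD8+ sample.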

Additional observations from a re-analysis of the deposited data

Results flagged for a closer look

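Within each environment, a sample was looked at again where its gap to the nearest other sample was large against the range of its group. This was checked in 252 groups of values and met in 33, where chance gives about 5% of groups, and many of the 33 are genes of a few molecules. No cause was tested.

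Red blood cell transcripts stood apart in 2 libraries. Hba-a1 was at 261 in EE replicate 6 and 494 in SE replicate 3, and Hbb-bs was at 133 and 303 in the same samples. Their summed markers were 583 and 1037. EE replicate 6 also stood apart for the summed B-cell markers, 119. In SE replicate 6 the mitochondrially encoded sum was 4483 and mt-Rnr1 990.0.

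Other genes with a mean above 10 stood apart in 1 sample of a group. They were Pbxip1 in SE replicate 6 (18.3), Ikzf1 in EE replicate 1 (23.3), Tsc22d3 in SE replicate 1 (32.5), Akap13 in EE replicate 4 (59.2), Bst2 in SE replicate 1 (18.8), Trbv14 in EE replicate 4 (41.7) and Trbv4 in EE replicate 5 (26.9) and SE replicate 6 (2.88). Of these genes Akap13 took either sign over the alternatives, and the other 6 kept the direction of their difference.

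The rest had low counts. Nrf1 was 16.3 in EE replicate 6, Trav7-3 was 7.73 in EE replicate 2, Trav14-1 was 2.57 in SE replicate 1 and Trav9n-3 was 0 in SE replicate 2. Cd4 was 0.966 in EE replicate 2, its lone molecule in that group, and 0 in SE replicate 1. Tyrobp was 1.58 in EE replicate 5. Trdc, the gamma-delta marker and its list's sum, was 3.87 in EE replicate 2 and 0.856 in SE replicate 1. Pf4 was 3.72 in EE replicate 1, which is also the platelet sum there, Itga2b was 0.940 in EE replicate 3, and Itga2b and the platelet sum were 1.92 in SE replicate 6.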

How the results depend on the processing

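The count of genes past the adjusted threshold, 0, was 3 without a filter on the mean, 3 with the replicate block, 1 without the 3 libraries that stood apart and 0 to 3 without one sample. The genes were Trbv12-2, Ccl5, Ly6c2, Ly6a and Tpt1-ps3, 7 of the 20 alternatives calling at least 1. The count at an unadjusted p under 0.05, 413, was 237 with DESeq2, 130 with a mean above 10, 665 without a filter and 377 to 440 without one sample. Past the first limits lay 54 genes, 28 with DESeq2, 4 with a mean above 10 and 50 to 76 without one sample, and past the wider limits 95, or 93 to 114. The interaction gave 0 genes in every alternative. The replicate block, with the animal number of replicates 1, 2, 3 and 6, called Trbv12-2, Ly6c2 and Ccl5, and the numbers share no mouse between environments.

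The differences of the CD8 markers had either sign without one sample, -3.93 to 6.99 for Cd8a (0.815 with all) and -5.09 to 8.09 for Cd8b1 (2.21 with all), in normalized counts. On the log2 scale 14 genes, none of them called, took the other sign under some setting. Cd8a was -0.13 without the 3 libraries, -0.042 with the block, -0.0077 with equal totals and -0.066 to 0.092 without one sample. Cd8b1 was -0.0012 with equal totals and -0.038 to 0.055 without one sample. Runx3 was -0.35 without the 3 libraries, -0.10 with the block, -0.0086 with equal totals, -0.0029 with weights and -0.12 to 0.16 without one sample. Akap13 was -0.074, -0.11 and -0.0084 under the first 3 of these settings and -0.086 to 0.13 without one sample. Ier2 was 0.24 without the 3 libraries, 0.099 with the block and -0.18 to 0.13 without one sample. Itgb7 was 0.043 without the 3 libraries and -0.055 to 0.025 without one sample. Hist1h1c was 0.32 without the 3 libraries, 0.012 with weights and -0.51 to 0.29 without one sample. Hist2h2aa2 was -0.037 with DESeq2, -0.033 with edgeR and -0.20 to 0.39 without one sample. Ighm was 0.0032 with DESeq2, 0.0074 with edgeR and -0.13 to 0.062 without one sample. Cst3 was -0.26 with the block and -0.18 to 0.28 without one sample, and Ctss was 0.043 without the 3 libraries. Selplg was -0.032 to 0.11, Hba-a1 -2.90 to 0.11 and Hbb-bs -1.64 to 1.42 without one sample. The cause was not tested.

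Of 2178 values for 111 genes under the alternatives, 2092 kept direction and side of the threshold, 14 passed it and 72 changed sign. Of 652 list medians, 636 moved by less than the spread and 16 by more. Confidence intervals were wider for genes with a mean of 2 to 10 than above 10, and the parts of depth and of spread between mice were not separated.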
